A study of Homo sapiens with 18 samples.

Results

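A HAP1 line labelled as an RB1CC1 knockout was compared with its parental line, both in full medium. HAP1 is a near-haploid human cell line that grows attached and descends from KBM-7, a line of chronic myeloid leukaemia. The comparison took the 3 libraries titled RB1CC1KO (FIP200KO) and the 3 titled WT among those without starvation, 6 of the 18 libraries of the series. RB1CC1KO-labelled cells (HAP1, RB1CC1 knockout) and WT cells (HAP1, parental) were both grown in Iscove's medium with 10% heat-inactivated fetal calf serum, penicillin and streptomycin. For comparison, 3 further groups of 3 libraries each were used: RB1CC1KO-labelled cells and WT cells kept 6 h in EBSS (Earle's salts with glucose, without amino acids or serum) and a HAP1 line with an ATG7 knockout (ATG7KO) in full medium. Each genotype was represented by 1 line, so the knockout and any other difference between the lines cannot be told apart. The labels give independent biological replicates, and the p-values measure the spread between replicates of a line, not between lines.

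RB1CC1, also called FIP200, is the large scaffold protein of the ULK1 complex, in which the kinases ULK1 and ULK2 work with ATG13 and ATG101. The complex starts the formation of autophagosomes, the double membranes that enclose cell contents for breakdown in lysosomes, and it is switched on when amino acids run short. ATG7 acts later in the same process, where ATG8 proteins are attached to the membrane.

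Reads in genes ranged from 15645710 to 17243572 in the RB1CC1KO-labelled libraries and from 11994110 to 19073798 in the WT libraries. The deposited values are whole-number read counts per gene. Levels are given as CPM, reads relative to library size scaled by the TMM method, and differences as log2 fold changes, RB1CC1KO-labelled over WT, with a standard error derived from edgeR's quasi-likelihood F test. A gene was called when the Benjamini-Hochberg adjusted p of that test over all 15179 genes tested was below 0.05. In a principal component analysis of the 6 libraries over the 2000 genes of highest variance, component 1 took 68.8%. On it the RB1CC1KO-labelled libraries lay between 27.5 and 28.2 and the WT libraries between -28.8 and -26.7.

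The RNA of the targeted gene was higher, not lower, in the libraries labelled RB1CC1KO. RB1CC1 (ENSG00000023287, chromosome 8) had 147, 171 and 152 CPM in RB1CC1KO-labelled against 94.2, 106 and 115 CPM in WT. The groups did not overlap, and the log2 fold change was 0.58 ± 0.07 (edgeR, adjusted p = 8.3e-08). Counts over a whole gene cannot reveal a short edit, and no position of the edit is given by the labels used here, so the RNA level gives no check of the label. None of the 3 other measured members of the ULK complex was called by edgeR, and the median log2 fold change of the 4 was 0.04, against 0.02 over all genes tested.

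Of 15179 genes tested, 2606 were called, which is 17.2%. Of these, 1260 (8.3%) were higher and 1346 (8.87%) lower in the RB1CC1KO-labelled line. A call with a difference of at least 2-fold was made for 565 genes (3.72%), 177 of them higher and 388 lower. The middle 50% of all genes lay between -0.15 and 0.15 on the log2 scale, the lowest 1% lay under -2.33 and the highest 1% above 1.40. Larger differences were thus more often lower than higher in the RB1CC1KO-labelled line. The number of genes called higher was 674 without RB1CC1KO replicate 2, 782 without RB1CC1KO replicate 3, 757 without WT replicate 1 and 835 without WT replicate 3. The number called at least 2-fold stayed between 505 and 552 with any 1 of the 6 libraries left out. Without RB1CC1KO replicate 2, 38.6% of the calls were higher, against 48.3% with all libraries.

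**Figure D1:**
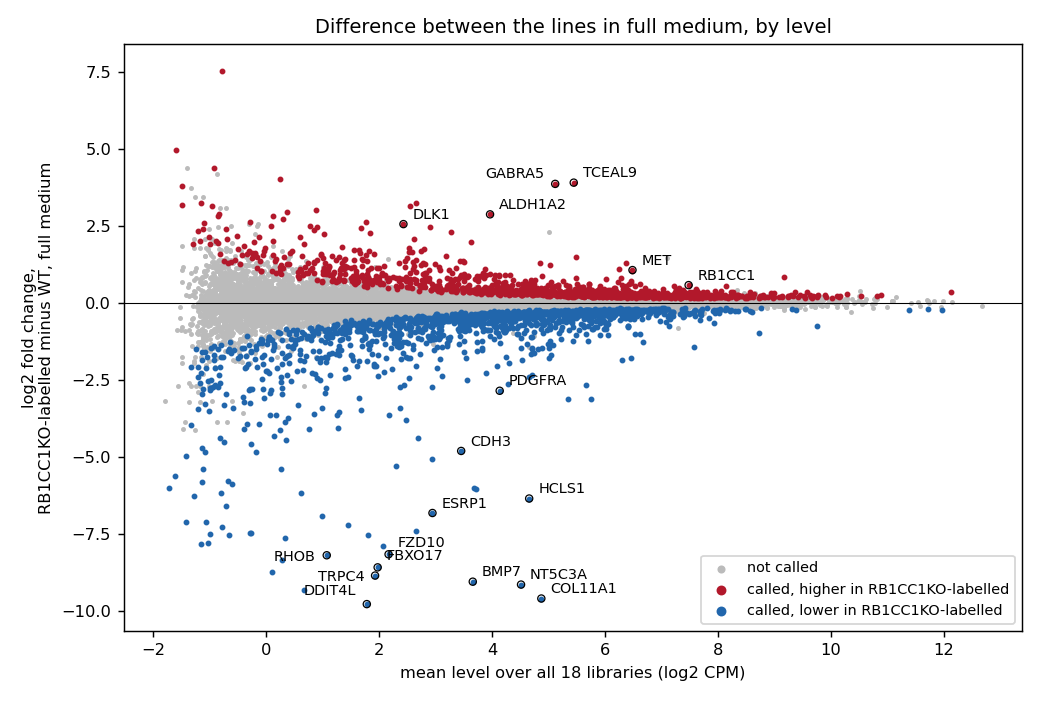
Log2 fold change of RB1CC1KO-labelled over WT in full medium (vertical axis) against the mean level over all 18 libraries in log2 CPM (horizontal axis), 1 point per gene, coloured by call (edgeR, adjusted p below 0.05). The lower side holds 388 genes called at least 2-fold and the higher side 177, with COL11A1, NT5C3A and BMP7 near the bottom.

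The farthest differences were in genes that the WT cells expressed and of which the RB1CC1KO-labelled cells had next to no reads. Summed over 3 libraries, 17 genes had at most 3 reads in the RB1CC1KO-labelled line and at least 100 in WT, and 0 genes showed the reverse. They were 16 protein-coding genes on 11 chromosomes and FZD10-AS1, an antisense transcript of FZD10. This limit chose them, so their difference in full medium is given as a description, without a test. Just outside the limit, the collagen gene COL11A1 had 1, 1 and 3 reads in RB1CC1KO-labelled against 1022, 1624 and 1152 in WT.

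Several of these genes encode secreted or surface proteins. BMP7, a bone morphogenetic protein, had 1, 1 and 0 reads in RB1CC1KO-labelled against 356, 461 and 332 in WT, a ratio of WT to RB1CC1KO-labelled of 632 with a 95% counting interval of 175 to 5225. FZD10, a receptor for WNT ligands, had 1, 0 and 0 reads in RB1CC1KO-labelled against 99, 166 and 102 in WT (ratio 404, interval 72.0 to 15990). LTBR, the lymphotoxin beta receptor, had 0, 0 and 0 reads in RB1CC1KO-labelled against 65, 100 and 68 in WT and was at least 85.4-fold lower. No RB1CC1KO-labelled library held more than 1 read of BMP7, FZD10 or LTBR, and each WT library held at least 65. THY1, a surface glycoprotein of fibroblasts and neurons, had 2, 0 and 1 reads in RB1CC1KO-labelled against 74, 78 and 68 in WT (ratio 80.7, interval 27.2 to 394). VCAM1, an adhesion molecule that binds leukocyte integrins, had 0, 2 and 1 reads in RB1CC1KO-labelled against 35, 53 and 41 in WT (ratio 47.3, interval 15.8 to 232). In both genes the WT libraries lay well above the RB1CC1KO-labelled ones. Bounds set a group without reads at 3 reads in all, and bounds and intervals cover counting error only.

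Others act inside the cell. NT5C3A, a pyrimidine nucleotidase, had 0, 0 and 2 reads in RB1CC1KO-labelled against 347, 555 and 341 in WT (ratio 684, interval 189 to 5652). DDIT4L, a relative of the mTORC1 inhibitor DDIT4, had 0, 0 and 0 reads in RB1CC1KO-labelled against 86, 131 and 103 in WT and was at least 117-fold lower. NT5C3A had the most WT reads of the 17 (1243, at 25.4, 27.5 and 26.9 CPM), and DDIT4L had 320. The small GTPase RHOB had 0, 0 and 0 reads in RB1CC1KO-labelled against 33, 51 and 24 in WT and was at least 39.6-fold lower. Its relative RHOD had 0, 0 and 0 reads in RB1CC1KO-labelled against 51, 68 and 37 in WT and was at least 57.2-fold lower. Both GTPases were without a read in every RB1CC1KO-labelled library. The calcium-permeable channel TRPC4 had 0, 0 and 0 reads in RB1CC1KO-labelled against 39, 89 and 44 in WT and was at least 63.1-fold lower, and CHMP4C, an ESCRT-III subunit of membrane scission, had 0, 0 and 0 reads in RB1CC1KO-labelled against 43, 54 and 22 in WT and was at least 43.6-fold lower. FBXO17, an F-box protein of ubiquitin ligases, had 0, 0 and 1 reads in RB1CC1KO-labelled against 153, 201 and 134 in WT (ratio 537, interval 95.9 to 21250). The other protein-coding genes were CGREF1, ZNF544, CALHM2 and THSD7B, with 1 to 3 reads in RB1CC1KO-labelled and 217 to 462 in WT.

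Of the 16 protein-coding genes, 13 also had at most 3 reads in the RB1CC1KO-labelled EBSS libraries, which played no part in choosing them. The exceptions were NT5C3A with 8 reads in RB1CC1KO-labelled EBSS libraries against 2110 in WT EBSS libraries, THSD7B with 4 against 321 and RHOB with 16 against 424. All 16 were called lower in EBSS by edgeR, where 16.9% of all genes were. In the ATG7KO libraries in full medium 7 of the 16 had at least 100 reads, among them NT5C3A (1497), THSD7B (603), FZD10 (587) and TRPC4 (461). FBXO17, RHOD and CHMP4C had 0 reads there, LTBR had 1 and RHOB had 3, so that 5 of the 16 had at most 3 reads in both knockout-labelled lines. The strand setting of the counting is not given by the labels, so reads of genes that overlap on opposite strands cannot be told apart with certainty. Here this touches CGREF1 with KHK, LTBR with SCNN1A, CHMP4C with ZFAND1 and THY1 with THY1-AS1. Among the genes described below it touches ALDH1A2 with AQP9, SYT2 with PPP1R12B, TGFB1 with HNRNPUL1, THBS1 with FSIP1, ACTA2 with FAS, ATG2B with GSKIP, LGALS8 with HEATR1, KRT8 with KRT18, PEG10 with SGCE and TYMS with ENOSF1. Other transcripts with a symbol overlap, on the opposite strand, CDH3, CDH13, CDKN1A, RETREG1, CHL1, ZNF544, COL4A3, SPARC, ITGB8, ITGA1, ITGA9, PMEPA1, CD44, LIN28B and SLC2A1. Transcripts known only by a clone name or an identifier do so for GSTM3, CALHM2, LAMA2, PCDH17, CCN2, CRABP1, IGFBP5, AXL, GABRG3, TAL1 and HMGCS1.

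Neighbours of these genes were called about as often as protein-coding genes in general. Of the 32 nearest tested protein-coding genes on either side, 26 were not called by edgeR, 3 were higher and 3 lower, and their median log2 fold change was -0.02. Of all protein-coding genes tested 18.6% were called, 9.05% higher and 9.52% lower. The 3 lower neighbours, named after their values were seen, were FKBP9 beside NT5C3A (-2.68, adjusted p = 4.06e-24), RIMBP2 beside FZD10 (-1.76, adjusted p = 0.00617) and POSTN beside TRPC4 (-1.51, adjusted p = 2.85e-06), all from edgeR.

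The promoters of 4 of these genes and of 2 that were higher in the RB1CC1KO-labelled line are shown to compare their sequence. Each window runs from 250 bases before to 50 after the gene's start (RefSeq, GRCh38.p14), 5′ to 3′ on the gene's strand, with every CG pair in capitals. CG, which reads the same on both strands, is the pair that DNA methylation marks, and many promoters are rich in it. The 4 low genes are NT5C3A (chr7:33062727-33063026, minus strand), DDIT4L (chr4:100190419-100190718, minus strand), RHOB (chr2:20446824-20447123, plus strand) and TRPC4 (chr13:37869723-37870022, minus strand). The 2 higher genes are ALDH1A2 (chr15:58065662-58065961, minus strand) and TCEAL9 (chrX:103356256-103356555, plus strand).
NT5C3A: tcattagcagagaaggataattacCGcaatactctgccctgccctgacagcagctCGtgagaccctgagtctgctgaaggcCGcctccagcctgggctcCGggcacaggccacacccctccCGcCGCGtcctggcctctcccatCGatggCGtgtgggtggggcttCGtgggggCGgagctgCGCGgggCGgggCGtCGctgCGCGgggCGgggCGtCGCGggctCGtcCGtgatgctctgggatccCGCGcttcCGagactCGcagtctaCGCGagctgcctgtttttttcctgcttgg
DDIT4L: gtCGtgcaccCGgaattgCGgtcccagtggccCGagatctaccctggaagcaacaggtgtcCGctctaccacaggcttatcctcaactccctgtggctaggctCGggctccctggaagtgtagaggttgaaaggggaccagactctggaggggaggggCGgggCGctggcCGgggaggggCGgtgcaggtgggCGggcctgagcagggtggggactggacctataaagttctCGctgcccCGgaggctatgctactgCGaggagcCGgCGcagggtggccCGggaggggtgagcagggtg
RHOB: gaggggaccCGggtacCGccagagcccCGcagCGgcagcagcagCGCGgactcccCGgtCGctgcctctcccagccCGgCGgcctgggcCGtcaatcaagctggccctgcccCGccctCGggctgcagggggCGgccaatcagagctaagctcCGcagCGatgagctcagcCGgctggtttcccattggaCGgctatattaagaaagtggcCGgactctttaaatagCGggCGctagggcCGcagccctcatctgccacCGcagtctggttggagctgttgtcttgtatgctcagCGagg
TRPC4: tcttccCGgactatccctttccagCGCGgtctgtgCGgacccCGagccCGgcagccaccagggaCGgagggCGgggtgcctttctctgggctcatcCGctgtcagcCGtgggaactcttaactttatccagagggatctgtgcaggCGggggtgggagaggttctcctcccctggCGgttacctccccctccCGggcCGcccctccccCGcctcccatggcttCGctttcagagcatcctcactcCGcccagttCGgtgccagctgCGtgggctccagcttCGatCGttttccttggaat
ALDH1A2: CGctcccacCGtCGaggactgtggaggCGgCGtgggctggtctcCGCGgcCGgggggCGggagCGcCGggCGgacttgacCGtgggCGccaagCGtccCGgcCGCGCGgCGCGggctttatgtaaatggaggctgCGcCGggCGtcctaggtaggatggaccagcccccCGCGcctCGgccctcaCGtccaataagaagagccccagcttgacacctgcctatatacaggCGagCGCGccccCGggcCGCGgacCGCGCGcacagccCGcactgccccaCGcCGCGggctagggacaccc
TCEAL9: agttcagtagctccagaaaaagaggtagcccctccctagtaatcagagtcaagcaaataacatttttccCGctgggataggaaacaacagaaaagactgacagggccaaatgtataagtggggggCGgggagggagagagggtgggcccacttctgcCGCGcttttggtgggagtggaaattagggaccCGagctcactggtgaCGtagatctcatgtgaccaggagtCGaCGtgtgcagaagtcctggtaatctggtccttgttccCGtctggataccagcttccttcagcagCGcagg
These windows held 30, 17, 24 and 21 CG pairs in NT5C3A, DDIT4L, RHOB and TRPC4, and 41 and 10 in ALDH1A2 and TCEAL9. A window was counted as CG-rich with a GC content of at least 50% and an observed over expected CG of at least 0.6. Of the 17 genes near 0, 12 had a window, and 10 of these (83.3%) were CG-rich, against 8480 of 10438 (81.2%) of all protein-coding genes tested with one. At least 1 CG pair stood in 99.68% of those 10438 windows. Among genes called at least 2-fold the share was 64.9% for lower and 56.9% for higher genes. The share in the genes near 0 lay close to that of all genes, which is given without a test.

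Among the 14 genes that the naming rule took for the largest lower changes, 3 were neither near 0 nor a collagen. ESRP1, a splicing regulator of epithelial cells, had 3, 1 and 2 reads in RB1CC1KO-labelled against 191, 291 and 178 in WT (-6.82 ± 0.25, edgeR, adjusted p = 8.92e-22). HCLS1, an actin-binding protein of blood cells, had 7, 6 and 6 reads in RB1CC1KO-labelled against 414, 603 and 417 in WT (-6.35 ± 0.16, adjusted p = 1.16e-26). LGALS8, galectin 8, which binds sugars of damaged endosomes and recruits the receptor CALCOCO2 there, had 8, 5 and 6 reads in RB1CC1KO-labelled against 299, 564 and 304 in WT (-6.03 ± 0.21, adjusted p = 3.13e-22). With so few reads in RB1CC1KO-labelled, these standard errors are too small to be read as the precision of the changes. In all 3 genes every RB1CC1KO-labelled library lay under every WT library, which the naming rule fixed by taking only called genes without overlap. Overlap was absent for 31.5% of all genes tested. In ATG7KO the log2 fold change against WT was -2.92 ± 0.15 for LGALS8, -0.69 ± 0.12 for ESRP1 and 0.73 ± 0.08 for HCLS1.

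On the higher side the leading genes were expressed at a low level in WT. GABRA5, a subunit of the GABA-A receptor, had 90.6, 84.2 and 82.2 CPM in RB1CC1KO-labelled against 5.04, 5.705 and 6.93 CPM in WT (3.87 ± 0.10, edgeR, adjusted p = 1.84e-26). ALDH1A2, which makes retinoic acid from retinal, had 32.6, 33.8 and 33.9 CPM in RB1CC1KO-labelled against 4.31, 4.91 and 4.25 CPM in WT (2.88 ± 0.11, adjusted p = 1.31e-21). TCEAL9, an X-linked relative of transcription elongation factor A, had 48.7, 67.6 and 58.8 CPM in RB1CC1KO-labelled against 3.65, 3.62 and 4.49 CPM in WT (3.91 ± 0.15, adjusted p = 2.35e-17). In each of the 3 genes the lowest RB1CC1KO-labelled library lay above the highest WT library by more than 5-fold. DLK1, an imprinted gene of a Notch-like surface protein, had 11.3, 8.28 and 8.496 CPM in RB1CC1KO-labelled against 2.05, 1.29 and 1.496 CPM in WT (2.56 ± 0.19, adjusted p = 5.72e-13). GSTM3, a glutathione transferase, had 20.6, 23.2 and 21.4 CPM in RB1CC1KO-labelled against 4.53, 4.86 and 3.62 CPM in WT (2.30 ± 0.14, adjusted p = 1.26e-15).

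The other genes among the 14 with the largest higher changes included ZNF329, NALF1, RASGEF1B, MYH15, ECEL1, TIAM1, SYT2 and ST8SIA4, with log2 fold changes between 1.80 (ST8SIA4) and 3.26 (ZNF329). SYT2, a calcium sensor of vesicle release, had 23.6, 23.2 and 20.4 CPM in RB1CC1KO-labelled against 5.12, 6.697 and 5.04 CPM in WT. TIAM1, an activator of the GTPase RAC1, had 2.83, 2.25 and 2.31 CPM in RB1CC1KO-labelled against 0.731, 0.397 and 0.472 CPM in WT. In neither did the groups overlap, which the naming rule again fixed in advance. These 8 genes had adjusted p values of at most 4.68e-06 in edgeR, and a call was a condition of the choice.

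**Figure D2:**
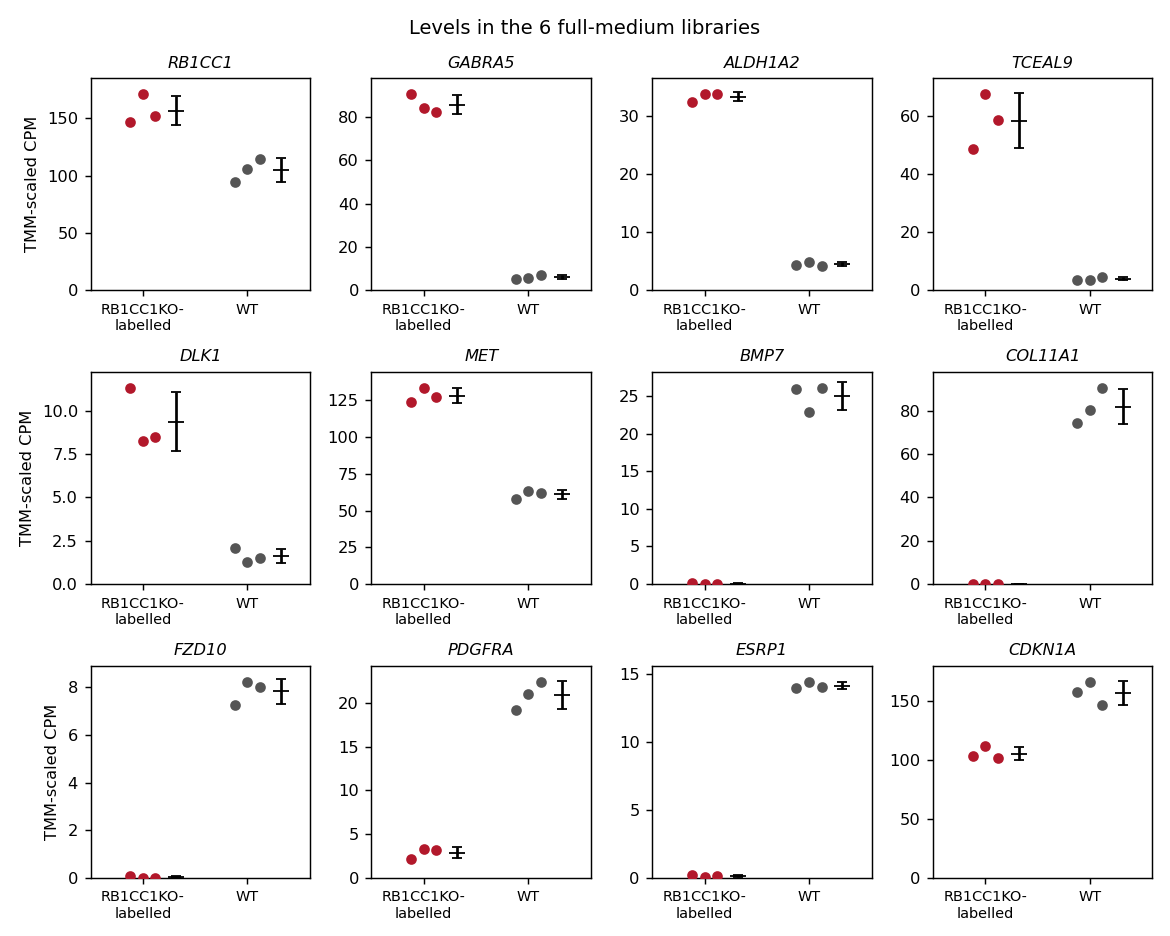
TMM-scaled CPM of 12 genes in each of the 6 full-medium libraries (points, RB1CC1KO-labelled left, WT right), with the mean and SD of each group (bar, n = 3). GABRA5, ALDH1A2, TCEAL9, DLK1, MET and RB1CC1 are higher in RB1CC1KO-labelled, and the other 6 are lower. In every panel the 2 groups are apart, which for all but RB1CC1 the choice of genes made likely. Overlap was absent for 31.5% of all genes tested.

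Ligands and target genes of bone morphogenetic protein (BMP) and TGF-beta signalling were more often called lower than higher. These secreted dimers bind paired receptor kinases, which phosphorylate SMAD proteins that switch on targets such as the ID genes. Of 17 measured ligands and subunits 6 were lower and 1 higher, with a median log2 fold change of -0.36, against 8.87% lower, 8.3% higher and a median of 0.02 over all genes. After BMP7, the farthest was BMP2, with 0.531, 0.338 and 0.425 CPM in RB1CC1KO-labelled against 1.68, 2.33 and 1.81 CPM in WT (-2.18 ± 0.37, edgeR, adjusted p = 3.63e-05). TGFB1 was lower by a smaller amount (-0.48 ± 0.09, adjusted p = 0.000213). INHBB, the beta B subunit of activin and inhibin, was the 1 higher ligand gene, with 13.5, 12.2 and 12.3 CPM in RB1CC1KO-labelled against 7.09, 8.93 and 7.17 CPM in WT (0.70 ± 0.14, adjusted p = 0.000389).

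Of 29 receptors, antagonists and SMADs 7 were lower and 4 higher (37.9% called, against 17.2% of all genes tested), with a median of 0.06. ACVR2B, an activin receptor, was higher (0.33 ± 0.07, edgeR, adjusted p = 0.000372). SMAD6, an inhibitory SMAD that BMP signals induce, had 8.67, 9.57 and 7.89 CPM in RB1CC1KO-labelled against 13.3, 14.2 and 13.9 CPM in WT (-0.66 ± 0.15, adjusted p = 0.001). Of 15 target genes 6 were lower and 2 higher (53.3% called), with a median of -0.27. SMAD6 is on this list too, so its lower call counts in both lists. PMEPA1, a target and inhibitor of TGF-beta signalling, had 2.71, 2.59 and 2.55 CPM in RB1CC1KO-labelled against 6.43, 5.61 and 4.02 CPM in WT (-1.04 ± 0.21, adjusted p = 0.000382). CCN2, a matrix-associated target also known as CTGF, was lower by less (-0.54 ± 0.11, adjusted p = 0.000631). The higher receptor genes numbered 2 without RB1CC1KO replicate 2 or WT replicate 1 and 1 without RB1CC1KO replicate 3, the lower ones 4 without WT replicate 2. The higher targets numbered 0 without RB1CC1KO replicate 3 and 1 without WT replicate 1 or 2. In EBSS 2 of the 6 lower targets were also called lower and 0 of the 2 higher ones higher by edgeR, and the median of the list there was 0.13.

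WNT genes changed in both directions. WNT ligands bind Frizzled receptors with the co-receptors LRP5 and LRP6 and stabilise beta-catenin. Of 9 measured ligands 1 was lower and 1 higher, or 22.2% called, against 17.2% of all genes tested. WNT5B had 1.297, 0.901 and 1.09 CPM in RB1CC1KO-labelled against 5.48, 2.28 and 4.72 CPM in WT (-1.87 ± 0.27, edgeR, adjusted p = 2.2e-06), and WNT7B had 2.24, 2.42 and 2.73 CPM in RB1CC1KO-labelled against 0.292, 0.248 and 0.709 CPM in WT (2.63 ± 0.40, adjusted p = 4.89e-06). Of 24 receptors and secreted modulators 5 were higher and 4 lower, with a median of -0.14, and 2 were lower without WT replicate 1. LRP5 had 45.5, 37.9 and 38.2 CPM in RB1CC1KO-labelled against 77.1, 69.8 and 72.8 CPM in WT (-0.85 ± 0.09, adjusted p = 2.14e-09). SFRP1, a secreted WNT inhibitor, was higher, with 44.2, 42.9 and 46.00 CPM in RB1CC1KO-labelled against 17.8, 18.9 and 17.1 CPM in WT (1.30 ± 0.08, adjusted p = 1.17e-14). Of 14 WNT target genes 3 were higher and 2 lower, with a median of 0.05, and 1 was lower without RB1CC1KO replicate 2 or WT replicate 1. The shares called were 37.5% for the receptors and modulators and 35.7% for the targets. ZNRF3, which removes Frizzled receptors from the surface, was lower (-0.40 ± 0.08, adjusted p = 0.000399), and TNFRSF19 was higher (0.52 ± 0.10, adjusted p = 0.00017).

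Matrix genes were among the lists with the most lower calls. Of 23 collagen chains 7 were lower and 4 higher, with a median of -0.17 (4 were lower without WT replicate 3). Calls made up 47.8%, against 17.2% of all genes tested. COL11A1, a fibrillar chain of cartilage, stood at 74.7, 80.6 and 90.7 CPM in WT and was the best expressed gene of those nearly absent in the RB1CC1KO-labelled line. Its log2 fold change was -9.60 ± 0.19, or -10.31 without RB1CC1KO replicate 3, which held 3 of its 5 reads. With 5 reads in RB1CC1KO-labelled, that standard error is too small to be read as the precision of the change. COL5A2, a partner chain in fibrils, had 7.43, 8.16 and 7.89 CPM in RB1CC1KO-labelled against 30.04, 29.2 and 31.8 CPM in WT (-1.95 ± 0.11, edgeR, adjusted p = 1.86e-16). COL4A3, a basement membrane chain, had 2.71, 2.53 and 3.03 CPM in RB1CC1KO-labelled against 7.53, 8.83 and 8.898 CPM in WT (-1.61 ± 0.17, adjusted p = 6.82e-09). In both, the groups did not overlap, as in 31.5% of all genes tested, and the choice by smallest p made this likely.

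Of 41 other matrix proteins and matrix enzymes 14 were lower and 6 higher (48.8% called, against 17.2% of all genes tested), with a median of -0.07. THBS1, thrombospondin 1, had 0.472, 0.619 and 1.03 CPM in RB1CC1KO-labelled against 4.82, 4.81 and 4.49 CPM in WT (-2.73 ± 0.27, edgeR, adjusted p = 1.24e-09). LAMA2, a laminin chain, had 15.9, 17.8 and 16.9 CPM in RB1CC1KO-labelled against 39.6, 38.8 and 41.6 CPM in WT (-1.24 ± 0.08, adjusted p = 2.87e-14). SPARC, a matrix-binding glycoprotein, had 56.8, 51.8 and 49.6 CPM in RB1CC1KO-labelled against 109, 105 and 105 CPM in WT (-1.01 ± 0.07, adjusted p = 1.44e-13). The summed level of the list ran from 1782 to 1937 CPM in the RB1CC1KO-labelled libraries and from 2039 to 2092 CPM in the WT libraries, so that the groups did not overlap. Collagen levels summed to between 1080 and 1168 CPM in the RB1CC1KO-labelled libraries and between 1210 and 1313 CPM in WT. COL11A1 alone averaged 0.099 CPM in RB1CC1KO-labelled and 82.0 CPM in WT, so the sum does not show a drop across the list.

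Adhesion genes followed with fewer calls. Of 17 integrins 3 were lower and 1 higher (23.5% called), with a median of 0.05. Over all genes tested 17.2% were called, 8.87% lower and 8.3% higher. ITGB8, which activates latent TGF-beta, had 3.302, 3.55 and 2.43 CPM in RB1CC1KO-labelled against 8.04, 6.895 and 7.95 CPM in WT (-1.29 ± 0.17, edgeR, adjusted p = 5.04e-07), and ITGA1, a collagen receptor chain, was lower as well (-0.88 ± 0.16, adjusted p = 9.93e-05). The higher one, ITGA9, was at 0.35 ± 0.10 (adjusted p = 0.0138) and lost its call without RB1CC1KO replicate 1 (adjusted p = 0.0893) or 2 (0.0856) or WT replicate 1 (0.0594) or 3 (0.0644). Of 23 cadherins and tight junction proteins 6 were lower and 2 higher (1 without RB1CC1KO replicate 1 or 2 or WT replicate 1 or 3), with a median of -0.02. The share called was 34.8%. CDH3, or P-cadherin, had 0.413, 0.225 and 0.728 CPM in RB1CC1KO-labelled against 16.2, 11.3 and 11.1 CPM in WT (-4.81 ± 0.24, adjusted p = 1.07e-17). CDH13, a cadherin anchored by lipid, had 0, 0 and 0 reads in RB1CC1KO-labelled against 25, 23 and 19 in WT and was at least 24.6-fold lower. CLDN1, a claudin of tight junctions, was higher, with 41.3, 41.3 and 40.1 CPM in RB1CC1KO-labelled against 27.7, 29.7 and 27.2 CPM in WT (0.53 ± 0.08, adjusted p = 3.31e-06).

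Receptor tyrosine kinases differed in both directions. Of 34 measured 8 were lower and 5 higher (3 without RB1CC1KO replicate 2), with a median of -0.01. Calls made up 38.2%, against 17.2% of all genes tested. PDGFRA, the PDGF receptor alpha of mesenchymal cells, had 2.18, 3.32 and 3.16 CPM in RB1CC1KO-labelled against 19.2, 21.1 and 22.4 CPM in WT (-2.85 ± 0.14, edgeR, adjusted p = 3.18e-18). EPHA3, an ephrin receptor, had 11.6, 14.6 and 11.4 CPM in RB1CC1KO-labelled against 38.7, 42.8 and 39.4 CPM in WT (-1.68 ± 0.09, adjusted p = 1.86e-16). MET, the receptor of hepatocyte growth factor, was higher, with 124, 133 and 127 CPM in RB1CC1KO-labelled against 57.6, 63.5 and 62.1 CPM in WT (1.07 ± 0.07, adjusted p = 2.01e-14). In all 3 genes the groups did not overlap, which the choice of called members by smallest p made likely. Overlap was absent for 31.5% of all genes tested. EPHB6, a kinase-inactive ephrin receptor, was higher too (0.92 ± 0.11, adjusted p = 2.66e-08).

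Of 15 measured PDGF, FGF and IGF ligands and binding proteins 4 were lower and 1 higher, with a median of -0.26. Calls made up 33.3%, against 17.2% of all genes tested. IGFBP5, which binds insulin-like growth factors, had 82.6, 80.9 and 74.9 CPM in RB1CC1KO-labelled against 163, 155 and 159 CPM in WT (-1.001 ± 0.06, edgeR, adjusted p = 2.18e-15). FGF5 was the higher one, at a low level, with 1.12, 1.97 and 0.971 CPM in RB1CC1KO-labelled against 0.512, 0.298 and 0.0787 CPM in WT (2.15 ± 0.50, adjusted p = 0.00182). The list summed to between 380 and 404 CPM in the RB1CC1KO-labelled libraries and between 509 and 534 CPM in WT. IGFBP5 alone averaged 79.5 CPM in RB1CC1KO-labelled and 159 CPM in WT, so the sum does not show a drop across the list. Of 18 targets of YAP and SRF, which respond to cell tension and the actin skeleton, 7 were lower and 1 higher, with a median of -0.15. The share called was 44.4%. AXL, a receptor kinase and YAP target, had 1.65, 1.75 and 1.76 CPM in RB1CC1KO-labelled against 4.17, 4.02 and 4.65 CPM in WT (-1.30 ± 0.20, adjusted p = 6.96e-06). ACTA2, smooth muscle actin, had 5.19, 5.12 and 5.46 CPM in RB1CC1KO-labelled against 11.9, 10.8 and 10.2 CPM in WT (-1.06 ± 0.11, adjusted p = 6.29e-09). All 7 lower genes were also called lower in EBSS, and the higher one was not. With 1 library left out, 1 member was higher without WT replicate 1 and 0 without any other library.

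**Figure D3:**
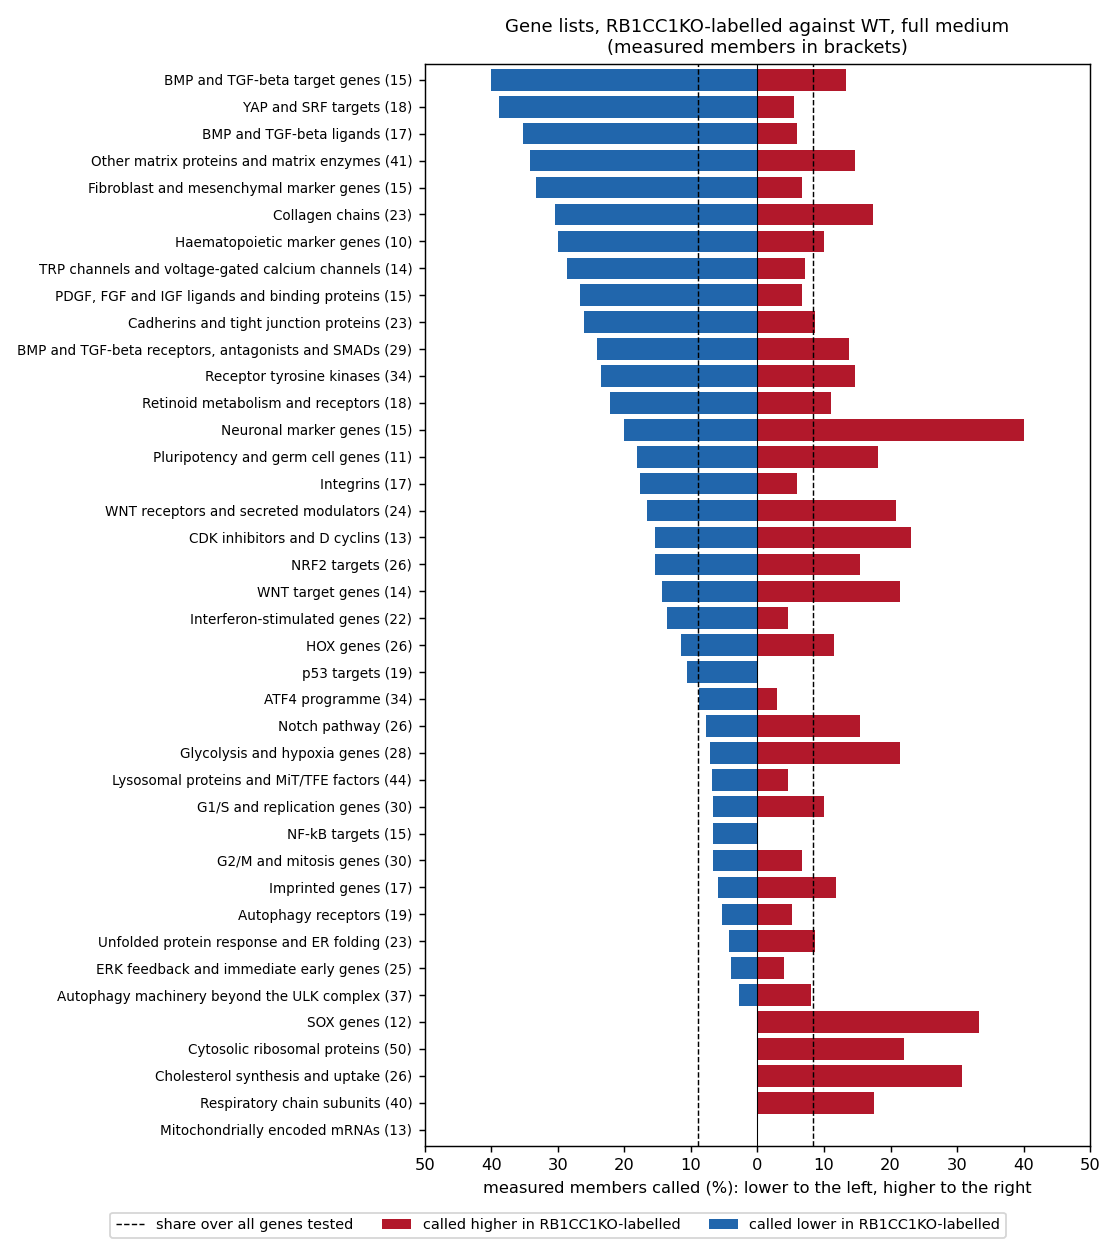
Share of the measured members of each gene list called lower (left of 0) and higher (right of 0) in RB1CC1KO-labelled against WT in full medium, for the lists shown, each with at least 10 measured members, whose number is in brackets. Dashed lines mark the shares over all genes tested, 8.87% lower and 8.3% higher; BMP and TGF-beta targets, YAP and SRF targets, ligands and matrix genes lie furthest past the lower line.

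Some genes of nerve cells and of retinoid metabolism were called. Of 6 measured GABA receptor subunits 3 were higher and 0 lower by edgeR, with a median of 0.46. Besides GABRA5, described above, GABRG3 had 19 reads in the RB1CC1KO-labelled libraries against 2 in WT, a ratio of 8.63 with a counting interval of 2.08 to 76.5, and its call was lost without WT replicate 1 (edgeR, adjusted p = 0.0548). Of 15 neuronal markers 6 were higher and 3 lower (60.0% called, against 17.2% of all genes tested), with a median of 0.23. The higher ones numbered 2 without WT replicate 1 and 3 without WT replicate 2 or RB1CC1KO replicate 2 or 3. MAP2, a microtubule protein of dendrites, had 21.6, 26.6 and 25.2 CPM in RB1CC1KO-labelled against 11.3, 14.9 and 12.4 CPM in WT (0.91 ± 0.10, adjusted p = 1.4e-08). CNTNAP2, a neuronal adhesion protein, had 0.531, 1.07 and 1.15 CPM in RB1CC1KO-labelled against 9.58, 10.4 and 9.37 CPM in WT (-3.41 ± 0.21, adjusted p = 6.93e-15), and the adhesion molecule CHL1 was lower as well (-1.34 ± 0.13, adjusted p = 7.77e-10).

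Of 18 genes of retinoid metabolism and its receptors 2 were higher and 4 lower (33.3% called, against 17.2% of all genes tested), with a median of 0.07. ALDH1A2, described above, had the larger of the higher changes. CRABP1, which binds retinoic acid, was lower (-0.76 ± 0.18, edgeR, adjusted p = 0.0023). The 4 lower genes were 2 without RB1CC1KO replicate 1 or 2 or WT replicate 1 or 3. Among 26 HOX genes, which set position along the body axis, 3 were higher and 3 lower (1 lower without RB1CC1KO replicate 1 or 2 or WT replicate 1). The share called was 23.1%. HOXC11 had 9.08, 8.16 and 7.65 CPM in RB1CC1KO-labelled against 2.63, 2.63 and 2.599 CPM in WT (1.66 ± 0.18, adjusted p = 1.28e-08). Of 12 SOX genes 4 were higher and 0 lower by edgeR (33.3% called), led by SOX1 with 1.42, 1.86 and 2.43 CPM in RB1CC1KO-labelled against 0.731, 0.397 and 0.472 CPM in WT (1.85 ± 0.39, adjusted p = 0.000588). By edgeR, SOX4 lost its call without RB1CC1KO replicate 2 (adjusted p = 0.0608) and SOX5 without WT replicate 1 (0.0573). SOX8 lost its call without RB1CC1KO replicate 3 (0.111) or WT replicate 3 (0.118). In EBSS 1 of the 4 was also called higher. Among 11 pluripotency and germ cell genes 2 were higher and 2 lower (1 without WT replicate 2), or 36.4% called. LIN28A, a repressor of let-7 processing, had 12.6, 15.8 and 14.1 CPM in RB1CC1KO-labelled against 39.5, 35.2 and 42.4 CPM in WT (-1.45 ± 0.10, adjusted p = 4.13e-14), while its paralogue LIN28B was higher, with 108, 121 and 106 CPM in RB1CC1KO-labelled against 73.7, 75.1 and 78.98 CPM in WT (0.56 ± 0.07, adjusted p = 4.06e-08).

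Markers of cell types were examined in both lines. In bulk libraries fewer cells of a type and less RNA per cell cannot be told apart. Of 24 haematopoietic markers 10 passed the filter on low counts, and 7 had 0 reads in both groups, among them PTPRC, SPI1, GATA1 and MPO. These defining genes of blood cells thus had no read in either line. Of the 10, 3 were lower and 1 higher (40.0% called, against 17.2% of all genes tested). CD44, a hyaluronan receptor, had 1.36, 0.957 and 0.668 CPM in RB1CC1KO-labelled against 4.46, 5.36 and 6.14 CPM in WT (-2.41 ± 0.27, edgeR, adjusted p = 1.37e-08), and the transcription factor TAL1 was higher, with 50.4, 54.7 and 49.3 CPM in RB1CC1KO-labelled against 36.1, 41.1 and 34.6 CPM in WT (0.46 ± 0.08, adjusted p = 9.41e-05). The list summed to between 134 and 145 CPM in the RB1CC1KO-labelled libraries and between 136 and 149 CPM in WT. Of 12 endothelial markers 1 was measured, and 4, among them PECAM1 and TEK, had 0 reads in both groups.

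Of 9 measured epithelial markers 4 were lower and 0 higher by edgeR (44.4% called, against 17.2% of all genes tested), with a median of -0.37. Besides ESRP1 and CDH3 these were KRT8 (-0.39 ± 0.11, edgeR, adjusted p = 0.00968), a keratin of simple epithelia, and EPCAM, an epithelial adhesion molecule, with 0.295, 0 and 0.243 CPM in RB1CC1KO-labelled against 3.73, 3.17 and 2.599 CPM in WT (-4.11 ± 0.47, adjusted p = 2.84e-08). KRT18 and GRHL1 were measured in both lines and not called, GRHL2, KRT14 and KRT19 had 0 reads in both, and CDH1 had 1 read in RB1CC1KO-labelled against 5 in WT. The epithelial list summed to between 88.3 and 99.4 CPM in the RB1CC1KO-labelled libraries and between 132 and 144 CPM in WT. Markers of fibroblasts and mesenchymal cells numbered 15 measured, 5 of them lower and 1 higher (40.0% called), with a median of -0.30, and DCN, LUM and FAP had 0 reads in both groups. With 1 library left out, 0 were higher without RB1CC1KO replicate 1 or 2 or WT replicate 1 or 2. That list summed to between 1026 and 1097 CPM in the RB1CC1KO-labelled libraries and between 1142 and 1169 CPM in WT. The part of other cell types in these differences was not tested.

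Few genes of autophagy itself were called. Of 37 measured genes of the machinery beyond the ULK complex 3 were higher (1 without RB1CC1KO replicate 3) and 1 lower, with a median of 0.06. The share called was 10.8%, under the 17.2% of all genes tested. ATG2B, a lipid transfer protein of the growing membrane, had 47.1, 49.4 and 45.7 CPM in RB1CC1KO-labelled against 56.2, 59.97 and 59.2 CPM in WT (-0.30 ± 0.07, edgeR, adjusted p = 0.00114). GABARAPL2, an ATG8 protein, had 42.5, 46.1 and 46.2 CPM in RB1CC1KO-labelled against 33.5, 33.5 and 36.1 CPM in WT (0.39 ± 0.09, adjusted p = 0.0014). Of 19 receptors 1 was higher and 1 lower. RETREG1, also called FAM134B, a receptor for the removal of endoplasmic reticulum, had 5.13, 6.59 and 5.76 CPM in RB1CC1KO-labelled against 16.7, 16.9 and 16.9 CPM in WT (-1.53 ± 0.13, adjusted p = 1.02e-11). CALCOCO1, another such receptor, was higher (0.49 ± 0.13, adjusted p = 0.00711), a call lost without RB1CC1KO replicate 3 (adjusted p = 0.079) or WT replicate 3 (0.056). The lower receptors numbered 2 without RB1CC1KO replicate 1 or WT replicate 2.

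Of 44 lysosomal proteins and MiT/TFE factors 2 were higher and 3 lower, with a median of 0.04 and with sums of 3027 to 3057 CPM in RB1CC1KO-labelled and 2986 to 3036 CPM in WT. The share called was 11.4%, against 17.2% of all genes tested. CTSZ, a lysosomal protease, had 77.9, 74.8 and 70.8 CPM in RB1CC1KO-labelled against 98.1, 97.9 and 95.99 CPM in WT (-0.39 ± 0.06, edgeR, adjusted p = 1.71e-05). The higher ones numbered 0 without RB1CC1KO replicate 2 and 1 without RB1CC1KO replicate 3 or WT replicate 1 or 2. Of 26 targets of NRF2, the stress factor that the receptor SQSTM1 can release from KEAP1, 4 were higher and 4 lower (30.8% called), with a median of 0.00. HMOX1, haem oxygenase 1, was lower, with 9.97, 9.01 and 10.5 CPM in RB1CC1KO-labelled against 17.5, 19.3 and 17.3 CPM in WT (-0.88 ± 0.11, adjusted p = 1.86e-07), and AKR1C3 was higher, with 2.24, 1.69 and 2.31 CPM in RB1CC1KO-labelled against 0.658, 0.843 and 1.102 CPM in WT (1.26 ± 0.30, adjusted p = 0.00292), though its reads may be shared with near-identical paralogues. These 4 and 4 fell to 2 each without RB1CC1KO replicate 2 or WT replicate 1, and 2 were higher without RB1CC1KO replicate 3. Of 34 genes of the amino acid response driven by ATF4 1 was higher and 3 lower, or 11.8% called. SLC1A4, a neutral amino acid carrier, was lower, with 23.8, 22.1 and 21.97 CPM in RB1CC1KO-labelled against 31.9, 27.7 and 27.95 CPM in WT (-0.36 ± 0.08, adjusted p = 0.000654). The higher ATF4 gene was called only with all libraries or without RB1CC1KO replicate 1, and the lower ones numbered from 1 without RB1CC1KO replicate 2 or WT replicate 1 to 6 without RB1CC1KO replicate 1 or WT replicate 2, with 5 without RB1CC1KO replicate 3.

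Several housekeeping groups held small differences, mostly called higher. Of 26 genes of cholesterol synthesis and uptake 8 were higher and 0 lower by edgeR, with a median of 0.13. HMGCS1, an early enzyme of the pathway, had 204, 239 and 215 CPM in RB1CC1KO-labelled against 152, 174 and 157 CPM in WT (0.45 ± 0.07, edgeR, adjusted p = 3.35e-06). Summed levels of the list ran from 2683 to 2729 CPM in the RB1CC1KO-labelled libraries and from 2384 to 2450 CPM in WT. Of 28 glycolysis and hypoxia genes 6 were higher and 2 lower, and ENO2 had 160.5, 156 and 164 CPM in RB1CC1KO-labelled against 129, 126 and 135 CPM in WT (0.30 ± 0.06, adjusted p = 0.000182). Of 50 ribosomal proteins 11 and of 40 respiratory chain subunits 7 were higher and 0 lower, with medians of 0.15 and 0.12. Over all genes tested 17.2% were called, 8.3% higher and 8.87% lower. The share called was 17.5% for the respiratory list, near that of all genes, and larger for the cholesterol, glycolytic and ribosomal lists. None of the 13 mRNAs of the mitochondrial genome was called by edgeR.

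These counts depended on single libraries. Without RB1CC1KO replicate 3 the higher ribosomal and respiratory genes numbered 0 each, the cholesterol genes 4 and the glycolytic genes 3. Without RB1CC1KO replicate 2 they were 6 ribosomal, 4 respiratory and 5 cholesterol genes. Without WT replicate 1 there were 3 ribosomal and 4 respiratory genes, and without WT replicate 3 there were 3 of each. The lower glycolytic genes numbered 1 without RB1CC1KO replicate 2 or 3 and 0 without WT replicate 1, and 1 cholesterol gene was lower without RB1CC1KO replicate 1 or WT replicate 3, and 1 ribosomal gene without RB1CC1KO replicate 1.

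Small differences moved with the base composition of the transcripts. The genes were split by GC content into 5 bins of nearly equal size. In the lowest bin (23.5 to 41.0% GC) edgeR called 393 higher and 144 lower, with a median of 0.09. In the highest bin (58.2 to 83.9% GC) it called 108 higher and 422 lower, with a median of -0.09. The medians in EBSS ran the other way, at -0.03 in the lowest and 0.06 in the highest bin. Calls of at least 2-fold moved less, with 39 higher and 53 lower in the lowest bin and 27 higher and 90 lower in the highest. The part of base composition in the small differences was not tested. With a correction for GC content, chosen after the data were seen, 2942 genes were called, of which 2272 were called without it. Of the list counts given in the text, these moved by over 1.5 times with the correction. Higher calls numbered 11 for respiratory genes (7 without it), 7 for replication genes (3), 5 for retinoid genes (2), 4 for imprinted genes (2), 2 for integrins (1), 2 for ATF4 genes (1), 1 for cancer-testis genes (0) and 1 for mitotic genes (2). Lower calls numbered 5 for ATF4 genes (3), 2 for the autophagy machinery (1) and 1 for non-clustered protocadherins (0). The median was -0.065 for collagen chains (-0.165 without it), -0.12 for PDGF, FGF and IGF ligands and binding proteins (-0.26) and -0.22 for epithelial markers (-0.37). It was -0.01 for BMP and TGF-beta receptors, antagonists and SMADs (0.06) and 0.01 for receptor tyrosine kinases (-0.01), with the sign turned in both. With upper-quartile scaling the higher ribosomal genes numbered 7, the higher lysosomal and mitotic genes 1 each and the higher YAP and SRF targets 0, and the lower ATF4 genes numbered 5 and the lower autophagy receptors 2.

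**Figure D4:**
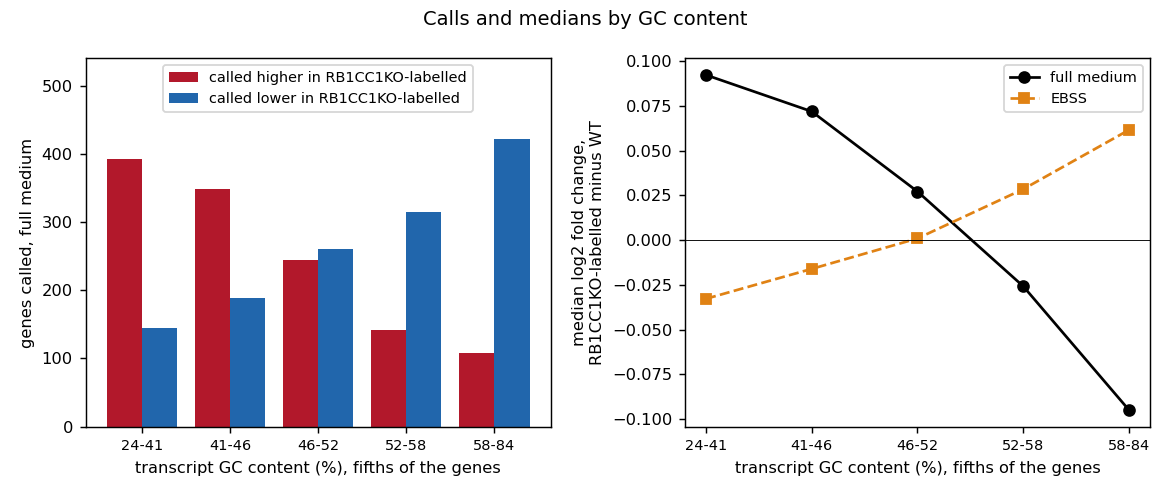
Left, genes called higher and lower in RB1CC1KO-labelled against WT in full medium, in 5 bins of transcript GC content in percent (bars). Right, the median log2 fold change of all genes in each bin, in full medium and in EBSS (points), at -0.09 in the highest bin in full medium and at 0.06 there in EBSS.

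Medians of chromosomes stayed near 0, between -0.06 on chromosome 22 and 0.08 on chromosome 4, leaving out the mitochondrial genome. Calls made up 25.4% of the genes of chromosome 4 (86 higher, 56 lower) and 12.3% of those of chromosome 19 (30 higher, 97 lower). The genes called at least 2-fold lower lay on every chromosome tested other than the mitochondrial genome. Their number ran from 2 of 132 genes tested on chromosome 21 to 35 of 1477 on chromosome 1, against 388 of 15179 over all genes. Protein-coding genes were called more often (18.6% of 12834) than long non-coding RNAs (11.6% of 1293) and pseudogenes (4.37% of 618). Calls of at least 2-fold numbered 325 lower and 139 higher for protein-coding genes. For long non-coding RNAs they numbered 50 lower and 26 higher, a larger share than for protein-coding genes, and for pseudogenes 8 and 6.

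The same lines in EBSS gave a second set of libraries that shares none with the first, although both enter 1 fit. RB1CC1KO-labelled replicate 2 in EBSS was the deepest library of the series, with 26005942 reads in genes. In EBSS 4803 genes (31.6%) differed between the RB1CC1KO-labelled and the WT line by edgeR, 2240 (14.8%) higher and 2563 (16.9%) lower. Of the 177 genes called at least 2-fold higher in full medium 113 (63.8%) were called higher in EBSS, and 0 were called lower. Those past 2-fold in both media numbered 88, which is 49.7% of the 177 and 30.7% of the 287 called at least 2-fold higher in EBSS. Of the 388 called at least 2-fold lower 308 (79.4%) were called lower in EBSS, and 0 were called higher. Those past 2-fold in both media numbered 280, which is 72.2% of the 388 and 48.3% of the 580 called at least 2-fold lower in EBSS. Among all calls, smaller ones included, 669 of 1260 higher and 884 of 1346 lower genes were called the same way in EBSS and 32 and 16 the opposite way.

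The lists differed in how many of their calls were also made in EBSS. Of the collagen chains 6 of 7 lower and 4 of 4 higher ones were called the same way there, and of the other matrix proteins 10 of 14 and 5 of 6, although the list medians in EBSS were above 0 (0.065 and 0.055). Of the receptor tyrosine kinases 6 of 8 lower and 5 of 5 higher ones were called the same way. Of the BMP and TGF-beta ligands 3 of 6 lower ones and 0 of 1 higher were, and of the receptors, antagonists and SMADs 5 of 7 lower and 1 of 4 higher. Of the PDGF, FGF and IGF list 4 of 4 lower ones and 0 of 1 higher were, and of the neuronal markers 3 of 6 higher and 3 of 3 lower. Among the housekeeping lists the higher calls were also made in EBSS for 6 of 8 cholesterol, 6 of 6 glycolytic, 4 of 11 ribosomal and 2 of 7 respiratory genes.

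In EBSS, GABRA5 had 51.3, 59.2 and 56.04 CPM in RB1CC1KO-labelled against 3.12, 3.32 and 3.46 CPM in WT (4.07 ± 0.11, edgeR, adjusted p = 5.24e-26). ALDH1A2 had 41.3, 43.8 and 43.5 CPM in RB1CC1KO-labelled against 4.97, 4.32 and 4.55 CPM in WT (3.22 ± 0.11, adjusted p = 2.1e-23). PDGFRA had 2.61, 2.16 and 1.69 CPM in RB1CC1KO-labelled against 19.3, 20.2 and 20.6 CPM in WT (-3.20 ± 0.14, adjusted p = 3.34e-19). For these genes the difference between media was not past the threshold (adjusted p = 0.512, 0.205 and 0.365), and the groups stayed apart in EBSS as in full medium. COL11A1 had 0.119, 0.0847 and 0.141 CPM in RB1CC1KO-labelled against 96.4, 88.9 and 91.4 CPM in WT, and MET had 165, 181 and 176 CPM in RB1CC1KO-labelled against 81.9, 78.7 and 83.4 CPM in WT.

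Whether the difference between the lines itself changed with the medium was tested in the same fit. That was called for 1238 genes (8.16%), with the difference in EBSS higher for 407 (2.68%) and lower for 831 (5.47%). The count was 824 without RB1CC1KO full-medium replicate 2 and 788 without WT EBSS replicate 1. CDKN1A, the cell cycle inhibitor p21, was lower in the RB1CC1KO-labelled line in full medium, with 103, 111 and 101 CPM in RB1CC1KO-labelled against 157, 166 and 146 CPM in WT (-0.58 ± 0.08, edgeR, adjusted p = 1.11e-06). In EBSS it was higher, with 135, 133 and 133 CPM in RB1CC1KO-labelled against 80.01, 83.03 and 87.2 CPM in WT (0.68 ± 0.08, adjusted p = 3.71e-08), and the change of the difference was 1.26 ± 0.11 (adjusted p = 9.67e-09). ID2, an inhibitor of differentiation factors, had the same pattern, at -0.43 ± 0.11 in full medium and 0.42 ± 0.12 in EBSS (change 0.84 ± 0.16, adjusted p = 0.000665), although its call in full medium was lost without WT replicate 1 (adjusted p = 0.0515). HCLS1 was lower in both media, at -6.35 ± 0.16 in full medium and -4.40 ± 0.13 in EBSS (change 1.95 ± 0.30, adjusted p = 4.1e-05).

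**Figure D5:**
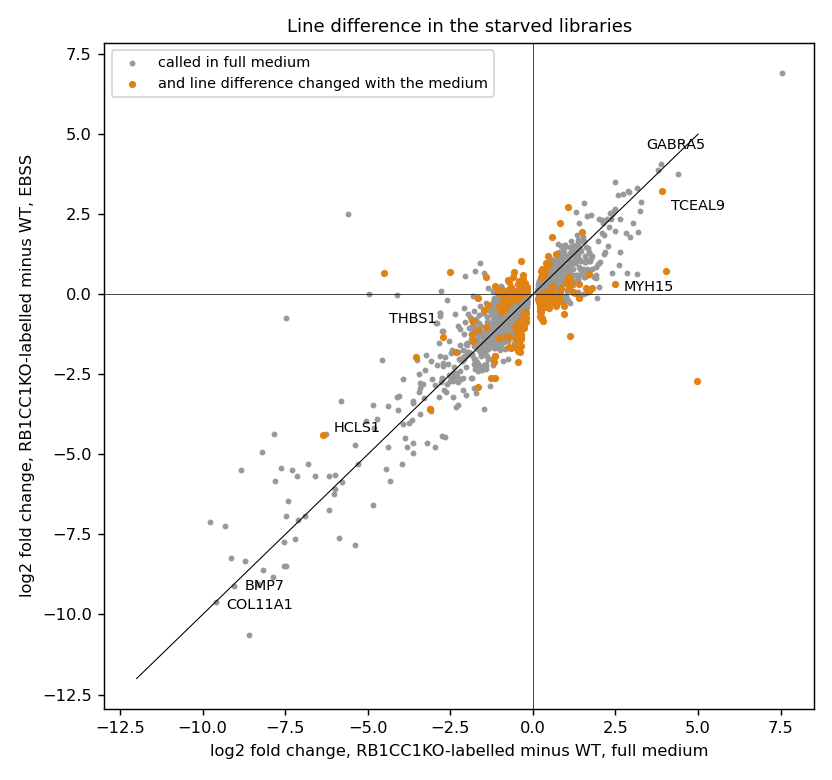
Log2 fold change of RB1CC1KO-labelled over WT in EBSS (vertical axis) against that in full medium (horizontal axis), for the 2606 genes called in full medium; the line marks equal values. Most genes with large differences lie near the line, and genes whose line difference changed with the medium (orange) include HCLS1, MYH15, THBS1 and TCEAL9.

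The ATG7KO line in full medium shares the WT libraries with the comparison made here, and its own comparison with the RB1CC1KO-labelled line shares the RB1CC1KO-labelled libraries, so values are set side by side only. RB1CC1KO-labelled against ATG7KO gave 3249 calls by edgeR (21.4%), 1732 higher (11.4%) and 1517 lower (9.99%). ATG7KO against WT gave 1599 (10.5%), 678 higher (4.47%) and 921 lower (6.07%). GABRA5 was higher than in WT in both, by 3.87 ± 0.10 in RB1CC1KO-labelled and 2.45 ± 0.10 in ATG7KO, and the lines differed by 1.42 ± 0.08 (adjusted p = 1.32e-16). TCEAL9 stood at 3.91 ± 0.15 in RB1CC1KO-labelled and 3.79 ± 0.15 in ATG7KO, with 0.12 ± 0.11 between them (adjusted p = 0.47). ALDH1A2 went opposite ways, at 2.88 ± 0.11 in RB1CC1KO-labelled and -2.13 ± 0.18 in ATG7KO. PDGFRA did so too, at -2.85 ± 0.14 in RB1CC1KO-labelled and 0.63 ± 0.10 in ATG7KO. MET was at 1.07 ± 0.07 in RB1CC1KO-labelled and -0.55 ± 0.07 in ATG7KO, and COL11A1 at -9.60 ± 0.19 in RB1CC1KO-labelled and -8.13 ± 0.17 in ATG7KO. BMP7 had 2 reads in RB1CC1KO-labelled, 351 in ATG7KO and 1149 in WT, a level in ATG7KO between the other lines. RETREG1 was at -1.53 ± 0.13 in RB1CC1KO-labelled and 0.06 ± 0.11 in ATG7KO, and CDKN1A at -0.58 ± 0.08 in RB1CC1KO-labelled and 0.13 ± 0.08 in ATG7KO.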

How the data were processed

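Bead-selected polyadenylated RNA was sequenced as 75 bp single-end reads from a directional kit, per the labels' protocols. The authors deposited counts, whole numbers of reads in each gene, as 1 table per library and without normalization, for 63677 Ensembl identifiers and 5 summary lines. The submitters' processing notes name STAR 2.4.2a, HTSeq 0.6.1p1, Picard, edgeR, DESeq2 and GRCh37/hg19, with no role for each. For the strand setting, the annotation release and read filters the entry is: not given in the sources used here. All 5 summary lines were left out. In the 6 full-medium libraries compared they include reads in no gene (11.2 to 15.1%) and reads in more than 1 gene (2.28 to 2.39%).

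Counts were analysed in R 4.3.3 with edgeR 4.0.16 and limma 3.58.1. Genes passing filterByExpr over 6 groups (15179) were scaled by TMM and fitted with 1 mean per group over all 18 libraries, by robust quasi-likelihood. The common biological coefficient of variation was 6.72%. Adjusted p-values (Benjamini-Hochberg, called below 0.05) come from edgeR's F test over all genes tested. The standard error is the log2 change over the root of F, not that of a coefficient. For a gene with few reads in 1 group it understates the uncertainty of the change. The fit was tested on simulated counts. No 2 replicates agreed within sampling noise.

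Genes with at most 3 reads in 1 line and at least 100 in the other were described from reads. Names came from GENCODE 29 of GRCh38, another build than the notes name, which matched 52526 identifiers. Promoter windows of 300 bases came from RefSeq, GRCh38.p14. Of 1382 entries of 51 gene lists, 1379 were matched. The members and lists were chosen with earlier results of these data known. Genes were named by rule: RB1CC1, GABRA5, ALDH1A2, PDGFRA and BMP7; the 14 protein-coding genes with the largest change in each direction among called genes whose groups did not overlap and whose log2 CPM averaged 1 or more (overlap was absent for 31.5% of all genes tested); protein-coding genes near 0; and up to 4 called members per list. Some items the rule names are not reported here. Alternatives were other scalings, no filter, DESeq2 1.42.0, a fit of the compared groups only, a replicate block, leaving out each library, and a GC correction chosen after the data were seen.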

Additional observations from a re-analysis of the deposited data

Results flagged for a closer look

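For 19 of the genes named by the rule, the difference between the RB1CC1KO-labelled and the WT line was not the same in EBSS as in full medium, by edgeR's test of the difference itself (adjusted over all 15179 genes, of which 8.16% passed). Values are the log2 difference between the lines in EBSS minus that in full medium, with the SE from the test, from 3 libraries in each of the 4 groups. The line difference was negative in full medium and positive in EBSS, with a change of 1.26 ± 0.11 for CDKN1A (adjusted p = 9.67e-09), 0.84 ± 0.16 for ID2 (adjusted p = 0.000665) and 0.89 ± 0.17 for EGR1 (adjusted p = 0.00103) by edgeR. In the same class the change was 1.18 ± 0.29 for PMEPA1 (adjusted p = 0.00763), 0.39 ± 0.11 for GATA2 (adjusted p = 0.0262) and 0.33 ± 0.10 for MCM5 (adjusted p = 0.0265) by edgeR. It was positive in full medium and negative in EBSS, with a change of -0.71 ± 0.13 for TAL1 (adjusted p = 0.000361), -0.86 ± 0.19 for HOXB9 (adjusted p = 0.0024) and -1.06 ± 0.27 for INHBB (adjusted p = 0.00957) by edgeR. It was negative in both media, with a change of -1.26 ± 0.17 for HOXD13 (adjusted p = 7.63e-06), 1.95 ± 0.30 for HCLS1 (adjusted p = 4.1e-05) and -1.21 ± 0.30 for SYT1 (adjusted p = 0.00891) by edgeR. In the same class the change was 1.39 ± 0.41 for THBS1 (adjusted p = 0.028) and 0.38 ± 0.12 for LRP5 (adjusted p = 0.0418) by edgeR. It was positive in both media, with a change of -2.14 ± 0.37 for MYH15 (adjusted p = 0.000218), 0.50 ± 0.10 for SLC2A1 (adjusted p = 0.000802) and 0.58 ± 0.17 for EGLN3 (adjusted p = 0.0295) by edgeR. In the same class the change was -0.33 ± 0.10 for RB1CC1 (adjusted p = 0.0305) and -0.70 ± 0.21 for TCEAL9 (adjusted p = 0.0405) by edgeR. CDKN1A encodes the cell cycle inhibitor p21, EGR1 an immediate early transcription factor, SLC2A1 the glucose transporter GLUT1 and EGLN3 an oxygen-sensing prolyl hydroxylase. Only some of these genes were called in both media, and a sign alone is not a call. The count over all genes was 824 without RB1CC1KO full-medium replicate 2 and 788 without WT EBSS replicate 1, against 1238 with all libraries. No cause was examined.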

How the results depend on the processing

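Across the alternatives run, no value called in full medium among the 185 named genes turned its direction. Of the 2606 genes called, the count was 2555 with RLE scaling, 2516 with upper-quartile scaling, 2530 without a filter, 2464 with DESeq2, 2472 with a fit of the compared groups only and 2942 with the GC correction, and 1745 to 2530 with 1 library left out. Higher calls made up 48.3% of these with all libraries, 42.0% with upper-quartile scaling, 40.1% with the compared groups only and 38.6% without RB1CC1KO replicate 2. With 1 library left out, higher calls numbered 674 to 1235 (1260 with all), lower calls 1005 to 1295 (1346), calls of at least 2-fold 505 to 552 (565), calls in EBSS 4028 to 4513 (4803), changes of the line difference with the medium 788 to 1588 (1238) and calls against ATG7KO 2460 to 2748 (3249). The log2 fold change of RB1CC1 ran from 0.50 to 0.62. Genes near 0 in RB1CC1KO-labelled numbered 12 to 22 with 1 library left out (17 with all), 6 at a limit of 0 reads, and 39 (against 5 near 0 in WT) with at least 30 reads in the other line. Of the named genes, 32 lost their call without WT replicate 1, 27 without RB1CC1KO replicate 2, 25 without RB1CC1KO replicate 3, 11 with the GC correction and 5 with upper-quartile scaling, the cause of which was not tested. Some same-numbered libraries were alike and others were not. In full medium the deviations of same-numbered RB1CC1KO and WT libraries correlated at 0.51, 0.49 and -0.12, and RB1CC1KO replicate 3 correlated best with WT replicate 1 (0.18). In EBSS the same-numbered libraries correlated at -0.01, 0.56 and 0.52. The labels do not say whether a replicate number marks a shared day, and the main fit held no replicate term. With a replicate block 2933 genes were called, and 0 of the 185 named genes changed their call. In full medium the shallowest of the 6 libraries had 11994110 reads, which limits the genes with few reads.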

Other observations

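Counts for further gene lists stand beside a share of 17.2% called among all genes tested. Of 17 measured imprinted genes 2 were higher and 1 lower (17.6%), and the shares called among cancer-testis genes (16.7%), interferon-stimulated genes (18.2%), genes of DNA replication (16.7%) and genes of G2 and mitosis (13.3%) were near or under that of all genes as well. The shares were 33.3% for BEX and TCEAL genes and 28.6% each for S100 genes and non-clustered protocadherins, from 9, 7 and 7 measured members. Besides DLK1, ZDBF2 was higher (0.36 ± 0.08, edgeR, adjusted p = 0.000656), and PEG10, a retrotransposon-derived gene, was lower by a small amount (-0.22 ± 0.06, adjusted p = 0.00706). Of 9 BEX and TCEAL genes, neighbours on the X chromosome, TCEAL9 was higher as given above, while TCEAL2 was lower, with 1.18, 1.58 and 1.27 CPM in RB1CC1KO-labelled against 4.09, 4.56 and 4.65 CPM in WT (-1.72 ± 0.23, adjusted p = 8.36e-07). BEX4, the second higher member of that list, was not called without RB1CC1KO replicate 3 (adjusted p = 0.071) or WT replicate 3 (0.0548). Of 6 measured cancer-testis genes PRAME, a repressor of retinoic acid signalling in tumour cells, was the 1 called, with 0.354, 0.394 and 0.364 CPM in RB1CC1KO-labelled against 5.701, 3.87 and 4.803 CPM in WT (-3.64 ± 0.28, adjusted p = 1.23e-12). Its RB1CC1KO-labelled libraries all lay under its WT libraries, which its choice as a called gene made likely. Overlap was absent for 31.5% of all genes tested. Of 7 S100 calcium-binding proteins 2 were lower and 0 higher by edgeR, and S100A11 had 9.44, 7.99 and 7.83 CPM in RB1CC1KO-labelled against 12.2, 14.7 and 14.9 CPM in WT (-0.73 ± 0.12, adjusted p = 2.26e-05).

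Of 7 non-clustered protocadherins, adhesion proteins of the developing nervous system, 2 were higher and 0 lower by edgeR. One of them lies on the X chromosome, PCDH19, with 10.2, 10.8 and 8.92 CPM in RB1CC1KO-labelled against 4.68, 5.51 and 5.04 CPM in WT (0.96 ± 0.13, adjusted p = 6.81e-07), and the other, PCDH17, had 9.26, 7.94 and 7.83 CPM in RB1CC1KO-labelled against 3.801, 4.71 and 5.67 CPM in WT (0.82 ± 0.15, adjusted p = 9.07e-05). One member was lower without RB1CC1KO replicate 2. Of 22 interferon-stimulated genes 1 was higher and 3 lower, and OAS2, which senses double-stranded RNA, had 0.413, 0.450 and 0.485 CPM in RB1CC1KO-labelled against 1.39, 1.98 and 3.07 CPM in WT (-2.22 ± 0.38, adjusted p = 3.28e-05). Of 30 genes of G2 and mitosis 2 were lower and 2 higher, and CDC20, an activator of the anaphase complex, was lower by -0.27 ± 0.06 on the log2 scale (adjusted p = 0.00124). The 2 higher mitotic genes numbered 0 without RB1CC1KO replicate 2 or 3 or WT replicate 1 or 3, and 1 without WT replicate 2. Of 30 genes of DNA replication 3 were higher and 2 lower, with TYMS, thymidylate synthase, at 0.24 ± 0.06 (adjusted p = 0.00154); without RB1CC1KO replicate 2 each direction held 1, without RB1CC1KO replicate 3 or WT replicate 3 the higher ones numbered 1, and without WT replicate 1 the lower ones numbered 1.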
